A study of Mus musculus with 2 samples.

Results

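The distal miRNA cluster of the Dlk1-Dio3 locus, named here after its host transcript Mirg, is a run of 39 annotated hairpins among the 1174 named mouse miRNA hairpins of GENCODE M21. It lies on the plus strand of chromosome 12 (GRCm38) and runs over 65.8 kb from Mir882 to Mir3072 (chr12:109747878-109747960). Its members were chosen by sequence alone: every sequenced tag (a distinct small RNA sequence with its read count) that matched one of these hairpins perfectly over its whole length was taken, and a tag that fitted several hairpins was counted once. This gave 758 distinct tags, of which 3 (12 reads under DMSO, 3 under PD) also matched a hairpin elsewhere in the genome.

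The small RNA libraries were made from J1 mESCs, a mouse embryonic stem cell line grown here without feeder cells on gelatin, in serum replacement medium with 1000 U/ml LIF. PD was PD0325901, an inhibitor of the kinase MEK, given at 1 μM for 24 h, and the control cells received DMSO alone for the same 24 h. Each treatment was represented by 1 library of total RNA pooled from 3 experiments, so no spread between experiments could be measured. Reads are PCR copies without molecular identifiers. The intervals and p-values of reads below therefore cover counting error only and compare these libraries, not the treatments. The interval of a median covers the spread over strands instead. These strands share hairpins and libraries and are not replicates.

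Imprinting divides the Dlk1-Dio3 locus between the parental chromosomes. The paternal copy expresses the protein-coding genes Dlk1, Rtl1 and Dio3, while the maternal copy expresses the noncoding RNAs Meg3, Rian and Mirg together with many snoRNAs and miRNAs. A miRNA is cut from the 5p or the 3p arm of its hairpin, and bases 2 to 8 of the mature strand, the seed, direct it to target mRNAs. In mouse pluripotent cells the maternal RNAs of this locus are known as a mark of full developmental potential, and its distal miRNAs are otherwise best known from neurons.

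The most frequent tags of the members on which the results turn are given 5′ to 3′ with the seed in capitals and with T for U, as sequenced. The first 4 were the most abundant strands, and miR-382-3p is the other arm of the hairpin with the lowest fold among those with 100 or more reads.
miR-323-3p: cACATTACacggtcgacct
miR-382-5p: gAAGTTGTtcgtggtggatt
miR-543-3p: aAACATTCgcggtgcacttctt
miR-541-5p: aAGGGATTctgatgttggtcacact
miR-382-3p: aATCATTCacggacaacact
The next 6 are the pairs of members that shared a seed.
miR-379-5p: tGGTAGACtatggaacgtagg
miR-1193-5p: tGGTAGACcggtgacgtaca
miR-379-3p: tATGTAACatggtccactaac
miR-411-3p: tATGTAACacggtccactaac
miR-494-5p: aGGTTGTCcgtgttgtcttctc
miR-410-5p: aGGTTGTCtgtgatgagtt
The last 8 are strands whose arm, start site or sequence variants are described further on.
miR-411-5p: tAGTAGACcgtatagcgtac
miR-409-3p: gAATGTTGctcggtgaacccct
miR-485-3p: aGTCATACacggctctcctctct
miR-377-5p: aGAGGTTGcccttggtgaatt
miR-377-3p: tGAATCACacaaaggcaactttt
miR-376a-3p: aTCGTAGAggaaaatccacgt
miR-376b-3p: aTCATAGAggaacatccactt
miR-376c-3p: aACATAGAggaaatttcacgt

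The libraries held 18870345 (DMSO) and 20944808 (PD) clean reads, of which 11.6% and 10.1% matched a miRNA hairpin. The miR-290-295 cluster, the main miRNA family of undifferentiated mouse ES cells, stood at 33346 and 28640 reads per 1000000 clean reads (RPM), whereas the miR-302 cluster stood at 15.2 and 26.7 RPM. Among miRNAs of other cell types, miR-124 (neurons) measured 257 and 476 RPM, miR-1 (muscle) 157 and 166 RPM and miR-143 (mesenchyme) 109 and 110 RPM, and the other 7 fixed markers lay between 0 and 20.9 RPM. miR-223, a defining marker of myeloid blood cells, had no read in either library, and the part of other cells in the results below was not tested.

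The cluster was lower in the PD library. It held 121337 reads, or 6430 RPM, in DMSO and 89873 reads, or 4291 RPM, in PD, a fold change of 0.667 (95% Clopper-Pearson interval 0.662 to 0.673). Its share of all miRNA reads went from 5.56% (95% Wilson interval 5.53 to 5.59) to 4.26% (4.23 to 4.28). All other miRNA hairpins together changed by a smaller factor, 0.884 (0.883 to 0.886). Fewer cells expressing the cluster and less RNA per cell cannot be told apart in these bulk libraries.

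A mature miRNA was defined as the most frequent tag on an arm, and all tags overlapping it by 16 nt or more were counted for it. Of the 71 arms of the cluster with reads, 56 reached 1 RPM in either library and were called detected, 25 on the 5p arm and 31 on the 3p arm, from 34 hairpins. Of these, 54 of 56 (96.4%) had a fold change below 1, against 67.5% of all 510 detected miRNAs. The median fold change was 0.751 (median log2 -0.41, order-statistic interval over strands -0.50 to -0.35). Across all 510 detected miRNAs the median was 0.892 (log2 -0.16), and across the 454 not in the cluster it was 0.921.

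At a threshold of 1.5-fold, 13 of the 56 cluster miRNAs (23.2%) were lower in PD, against 13.1% of all 510 detected miRNAs, and 0 of 56 were higher, against 6.27%. By the 2-sided exact binomial test of reads with Benjamini-Hochberg adjustment over all 510, 40 of 56 were lower (background 35.1%) and 1 was higher (background 8.82%). The count at 1.5-fold depended on the scaling. Relative to reads matching any miRNA hairpin, which moved the median log2 fold change of all 510 from -0.16 to 0.03, 4 of 56 cluster miRNAs were 1.5-fold lower, against 5.29% of all, and 46 of 56 had a fold below 1. On that scale the cluster median fold was 0.861 and that of the other miRNAs 1.06. Relative to clean reads of 20 to 24 nt, 40 of 56 had a fold below 1, and these medians were 0.910 and 1.12.

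**Figure D1:**
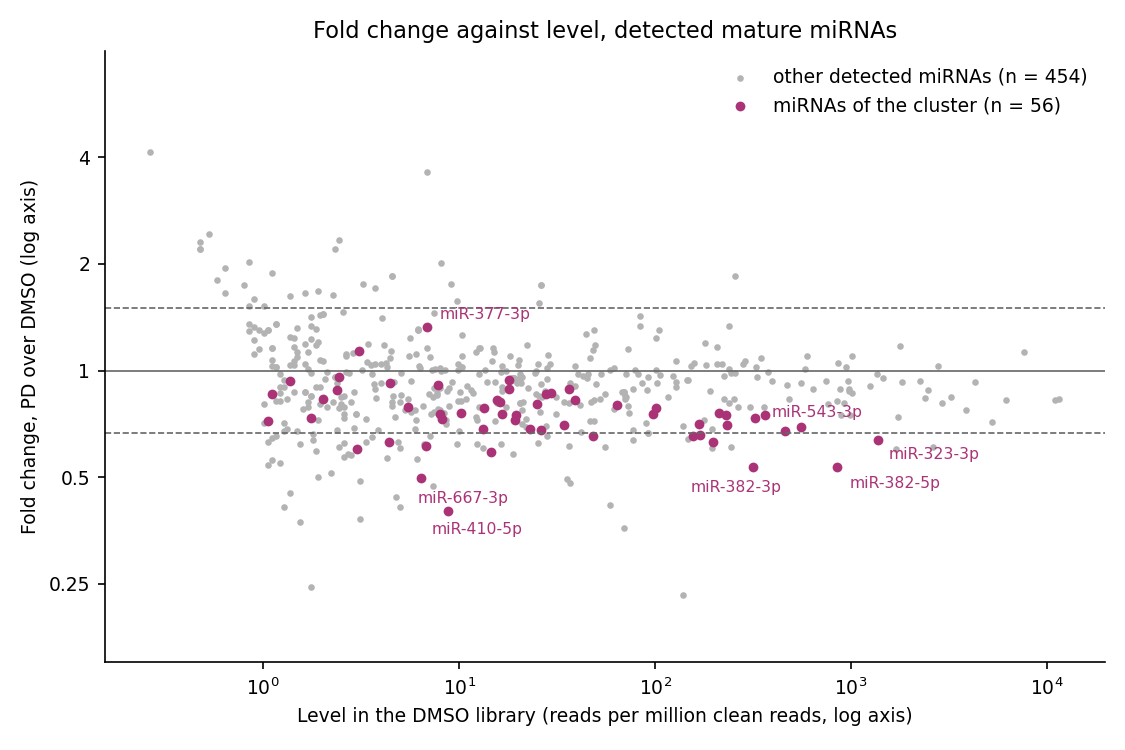
Fold change of each detected mature miRNA (PD over DMSO, log axis) against its level in the DMSO library (RPM, log axis), with 56 miRNAs of the cluster in purple and 454 others in grey. The solid line marks no change and the dashed lines 1.5-fold; all but 2 cluster points lie below the solid line, and miR-382-5p, miR-382-3p and miR-323-3p lie below the lower dashed line at 318 RPM or more.

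The reads were concentrated in few members. The 5 most abundant miRNAs held 56.1% of the cluster's reads in DMSO and 53.5% in PD, and the 10 most abundant 76.6% and 74.6%. The 15 miRNAs at 100 RPM or more in either library had a median fold of 0.691, the 22 with 10 to 100 RPM in DMSO one of 0.770, and the 19 below 10 RPM one of 0.788. More abundant members thus had somewhat lower fold changes, as a description over strands that share libraries and hairpins.

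The hairpins were followed in their order along the cluster, of which the first lies apart. Mir882 had no read and is separated from Mir379 by 26.8 kb, whereas Mir379 to Mir3072 span 38.9 kb with a median gap of 0.591 kb. In all, 25 hairpins lie upstream of the annotated Mirg gene (chr12:109729764-109749460) and 14 lie within it, 4 in exons, 5 in introns and 5 partly overlapping an exon. Mir654 and Mir453 also had no read in either library, which allows up to 0.159 RPM in DMSO and 0.143 RPM in PD by counting error, and Mir544 had 1 read in DMSO and 2 in PD.

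All 33 hairpins with 100 or more reads over both libraries had a fold below 1, from 0.533 (Mir382) to 0.877 (Mir496a) with a median of 0.750. The intervals of Mir1197 (0.611 to 1.09) and Mir496a (0.753 to 1.02) include 1. Relative to clean reads, folds below 1 were thus found along the whole run. On that scale all miRNA hairpins together had a fold of 0.872, and 67.5% of all 510 detected miRNAs were below 1. The highest folds of the run, such as that of Mir496a, therefore lay near that of all miRNA hairpins. Among the 32 pairs of neighbours in this order, the fold intervals of 22 pairs overlapped. The 25 hairpins upstream of Mirg together went from 3569 to 2470 RPM (fold 0.692, 0.6842 to 0.7001), and the 14 within Mirg from 2861 to 1821 RPM (0.636, 0.628 to 0.645). The lower value within Mirg rested on Mir382: without it the hairpins of Mirg had a fold of 0.707 (0.696 to 0.719). The upstream sum was not recomputed without Mir323, its most abundant hairpin (1413 to 900 RPM, fold 0.637).

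**Figure D2:**
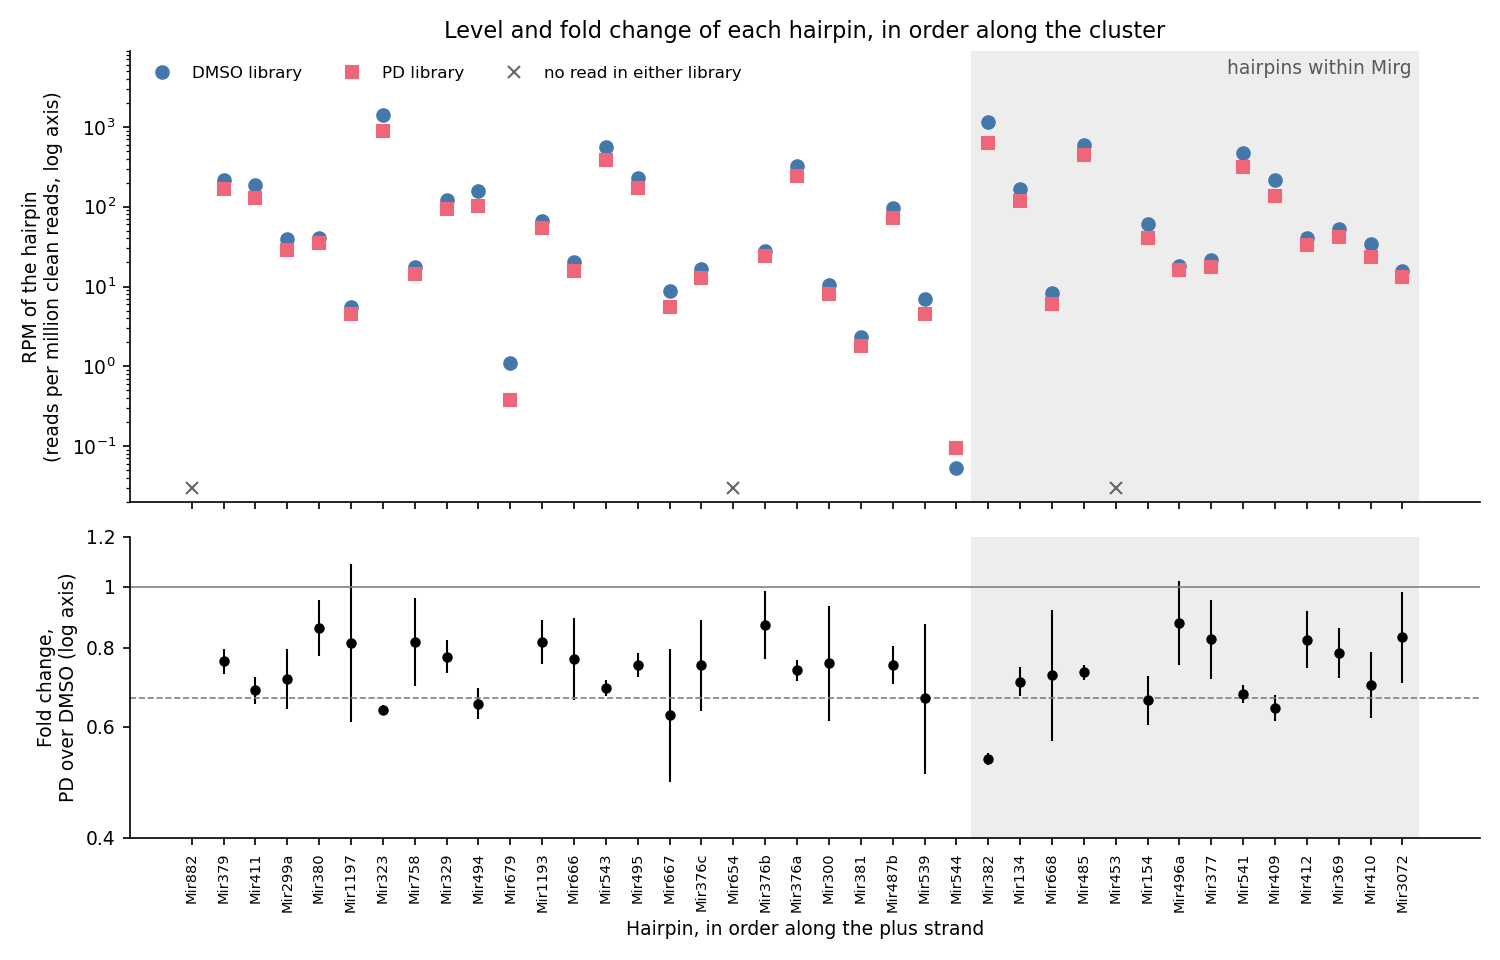
Level of each of the 39 hairpins in order along the plus strand (top; RPM in DMSO, blue circles, and PD, red squares, log axis; crosses mark the 3 hairpins with no read) and fold change PD over DMSO of the 33 hairpins with 100 or more reads (bottom; bars are 95% Clopper-Pearson intervals, the dashed line marks 1.5-fold lower). The grey band covers the 14 hairpins within Mirg; every fold in the lower panel is below 1, and Mir382 at 0.533 is the lowest.

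At the proximal end of the run, the Mir379 group carried moderate levels. miR-379-5p (chr12:109709065-109709085) measured 212 RPM in DMSO and 161 RPM in PD, a fold of 0.759 (0.725 to 0.795). miR-411-5p fell further, from 170 to 112 RPM (0.658, 0.624 to 0.694, adjusted p = 5.15e-53 by the exact binomial test). Its partner from the other arm, miR-411-3p, stood at 17.9 and 16.9 RPM (0.941, 0.808 to 1.10), which did not pass the test. Lower levels were found for miR-299a-3p (26.3 and 17.9 RPM), miR-299a-5p (13.4 and 10.5 RPM), miR-380-3p (36.4 and 32.3 RPM) and miR-758-5p (16.2 and 13.2 RPM). Of these, miR-299a-3p, miR-299a-5p and miR-758-5p passed the test, and miR-380-3p, with an adjusted p of 0.0688 by the exact binomial test, did not.

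miR-323-3p (chr12:109712558-109712576) was the most abundant strand of the cluster. It measured 1378 RPM in DMSO and 876 RPM in PD, a fold of 0.635 (0.623 to 0.647), and its hairpin alone held 21.97% and 20.97% of all reads of the cluster. The opposite strand, miR-323-5p, went from 34.1 to 24.0 RPM (0.702, 0.624 to 0.790). Further along, miR-494-3p fell from 156.1 to 101.8 RPM (0.652, 0.616 to 0.690). Its neighbours moved less, with miR-329-3p at 101.5 and 79.6 RPM (0.784, 0.734 to 0.838) and miR-1193-5p at 63.6 and 50.9 RPM (0.8004, 0.736 to 0.870), and their intervals do not reach that of miR-494-3p. miR-329-5p (19.24 and 13.99 RPM) and miR-666-5p (19.6 and 14.6 RPM) had folds of 0.727 and 0.747 and passed the test.

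In the middle of the run lay miR-543-3p and miR-495-3p. miR-543-3p (chr12:109717304-109717325) went from 554 to 383 RPM (0.691, 0.671 to 0.712), and miR-495-3p from 229 to 172 RPM (0.750, 0.718 to 0.785). The miR-376 family followed, closely related strands known for A-to-I editing within the seed. miR-376a-3p was the abundant one, at 325 and 239 RPM (0.736, 0.709 to 0.764), while miR-376b-3p measured 27.7 and 23.8 RPM (0.858, 0.757 to 0.972) and miR-376c-3p 16.6 and 12.5 RPM (0.754, 0.638 to 0.892). miR-487b-3p, at 97.2 and 73.2 RPM (0.753, 0.703 to 0.806), and miR-300-3p, at 10.3 and 7.78 RPM (0.757, 0.611 to 0.937), closed this stretch. All 7 passed the test, and none reached 1.5-fold.

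Mir382, the first hairpin within Mirg, had the lowest fold of the 33 hairpins when tags of all lengths were counted. miR-382-5p (chr12:109733781-109733800) dropped from 847 to 452 RPM and miR-382-3p (chr12:109733817-109733836) from 318 to 170 RPM. Over tags of all lengths both arms had nearly the same fold, 0.533 (0.520 to 0.547) for the 5p strand and 0.534 (0.512 to 0.556) for the 3p strand. Among tags of 21 nt or more the folds were 0.674 (0.651 to 0.698) and 0.805 (0.757 to 0.855), so the arms differed there. In such tags miR-494-3p had 0.656 (0.620 to 0.694), and this interval overlaps that of miR-382-5p. The hairpin's share of the cluster's reads went from 18.1% to 14.5%. Without Mir382 the fold of the whole cluster was 0.697 (0.690 to 0.704). The adjacent miR-134-5p, a brain miRNA known to repress Limk1 at synapses, measured 167 and 118 RPM (0.706, 0.670 to 0.745), and its interval does not reach that of either Mir382 strand.

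Of the remaining hairpins in Mirg, Mir485 and Mir541 were the most abundant. miR-485-5p stood at 366 and 275 RPM (0.752, 0.726 to 0.779) and miR-485-3p at 233 and 164 RPM (0.702, 0.671 to 0.734). miR-541-5p fell from 461 to 312 RPM (0.676, 0.655 to 0.698), just short of 1.5-fold. miR-409-3p fell by more, from 198 to 124 RPM (0.628, 0.597 to 0.660), while miR-409-5p, at 15.6 and 12.9 RPM, did not pass the test (adjusted p = 0.0564, exact binomial test). miR-154-3p went from 48.0 to 31.5 RPM (0.655, 0.592 to 0.725) and miR-154-5p from 13.3 to 9.07 RPM (0.682, 0.562 to 0.827).

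At the distal end the levels were low and the folds uneven. miR-412-5p measured 39.0 and 32.2 RPM, miR-369-3p 29.4 and 25.4 RPM and miR-410-3p 25.01 and 20.1 RPM, with folds from 0.804 to 0.864, all past the test. Among its tags of 21 nt or more, miR-410-3p had a fold of 1.12 instead. miR-369-5p was lower, with 434 and 329 reads (0.683, 0.590 to 0.790). miR-496a-3p, at 17.9 and 15.9 RPM, did not pass the test (adjusted p = 0.212, exact binomial test).

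The 13 miRNAs past 1.5-fold therefore included 7 already named, which are miR-411-5p, miR-323-3p, miR-494-3p, miR-382-5p, miR-382-3p, miR-409-3p and miR-154-3p, and 6 of lower level. miR-410-5p had the lowest fold of all 56, with 166 reads (8.80 RPM) in DMSO and 74 reads (3.53 RPM) in PD (0.402, 0.301 to 0.531). Its most frequent tag had 19 nt, a length at which the cluster's tags together had a fold of 0.496. miR-667-3p had 121 and 67 reads (0.499, 0.364 to 0.678) and miR-377-5p 275 and 180 reads (0.590, 0.486 to 0.714). miR-541-3p, miR-539-5p and miR-380-5p lay between 0.601 and 0.630, and their intervals, which reach up to 0.921, 0.810 and 0.891, allow a change well short of 1.5-fold. The member nearest to the threshold from within was miR-411-5p at 0.658, and from outside miR-541-5p at 0.676.

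Only 2 detected miRNAs of the cluster had a fold above 1. miR-377-3p rose from 130 to 191 reads (6.89 to 9.12 RPM; fold 1.32, 1.05 to 1.67; adjusted p = 0.0345, exact binomial test). No member of the cluster was higher by this test with no filter on low counts, or with PD reads downsampled to the DMSO total. miR-1193-3p had 58 and 73 reads (1.13, 0.792 to 1.63), a difference within counting error. The detected miRNAs not given with values so far lay between 1.06 and 8.21 RPM in DMSO, with folds from 0.721 to 0.960. The 15 undetected arms had at most 14 reads in DMSO and 20 in PD.

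Arm use differed little over the cluster as a whole. The 5p arm took 39.4% (39.1 to 39.7) of its reads in DMSO and 38.7% (38.4 to 39.0) in PD. The small difference rested on Mir382, without which the shares were 32.0% and 32.9%. The typical detected 5p strand had a fold of 0.727 and the typical 3p strand one of 0.754. Of the 33 hairpins with 100 or more reads, 22 placed 90% or more of their DMSO reads on one arm, and 13 used mostly the 5p arm in DMSO against 11 in PD.

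Over tags of all lengths, the 5p share differed by more than counting error allows in 4 of these 33 hairpins. The same count was not made for hairpins outside the cluster. Mir377 went from 67.9% (63.2 to 72.3) to 48.5% (43.5 to 53.6), so that miR-377-5p was its main strand in DMSO but not in PD, where the interval includes 50%. Mir410 went from 26.0% (22.8 to 29.6) to 14.9% (12.1 to 18.4) and Mir411 from 90.5% (89.5 to 91.4) to 86.9% (85.6 to 88.1). Mir409 moved the other way, from 7.32% (6.56 to 8.17) to 9.47% (8.45 to 10.6). Mir3072 also crossed 50%, from 50.7% to 45.8%, but its intervals overlap. The arms were not compared at equal tag length. In tags of 21 nt or more miR-411-5p had a fold of 0.846 (0.776 to 0.923), against 0.658 over all lengths. For miR-409-3p these folds were 0.760 (0.717 to 0.806) and 0.628. The part of tag length in the arm shares was not tested. Among the 22 hairpins with both arms detected, the less abundant arm had the higher fold in 15.

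**Figure D3:**
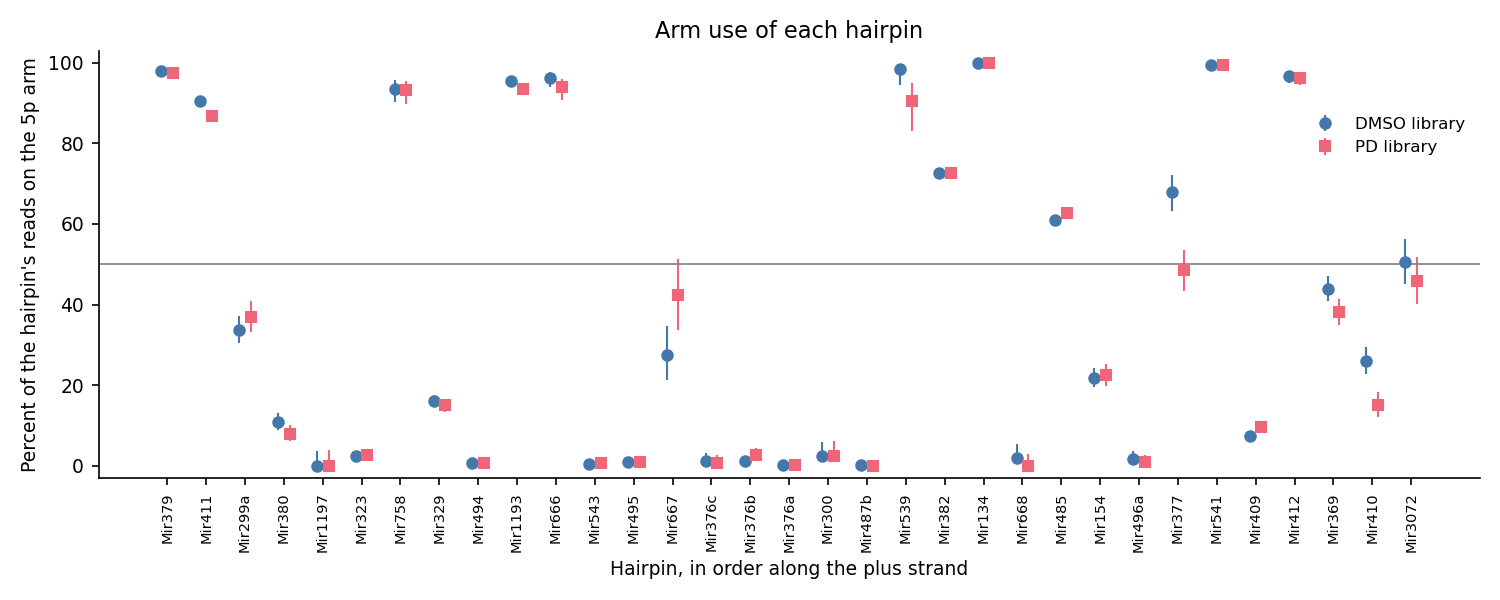
Percent of each hairpin's reads on its 5p arm in the DMSO (blue circles) and PD (red squares) libraries, for the 33 hairpins with 100 or more reads in order along the plus strand; bars are 95% Wilson intervals and the grey line marks 50%. Most hairpins sit near 0% or 100% in both libraries, and Mir377 shows the widest gap, 67.9% against 48.5%.

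The fold change depended on the length of the tags. Tags of 18 to 20 nt made up 33.7% of the cluster's reads in DMSO and 23.9% in PD, a fold of 0.473 (0.466 to 0.481), whereas tags of 21 nt or more had a fold of 0.766 (0.758 to 0.774). The other miRNA hairpins showed the same split, with 0.4998 (0.496 to 0.504) for 18 to 20 nt and 0.918 (0.916 to 0.920) for 21 nt or more, but only 8.06% of their DMSO reads were that short. All clean reads of 18 to 20 nt, most of them no miRNA, had a fold of 0.874. Clean reads of 21 to 24 nt had a fold of 0.837, and those of 25 to 44 nt one of 1.43. The latter went from 26.0% to 37.3% of the clean reads by which RPM divides. At the length make-up of the other miRNA reads, the cluster would have had a fold of 0.748.

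**Figure D4:**
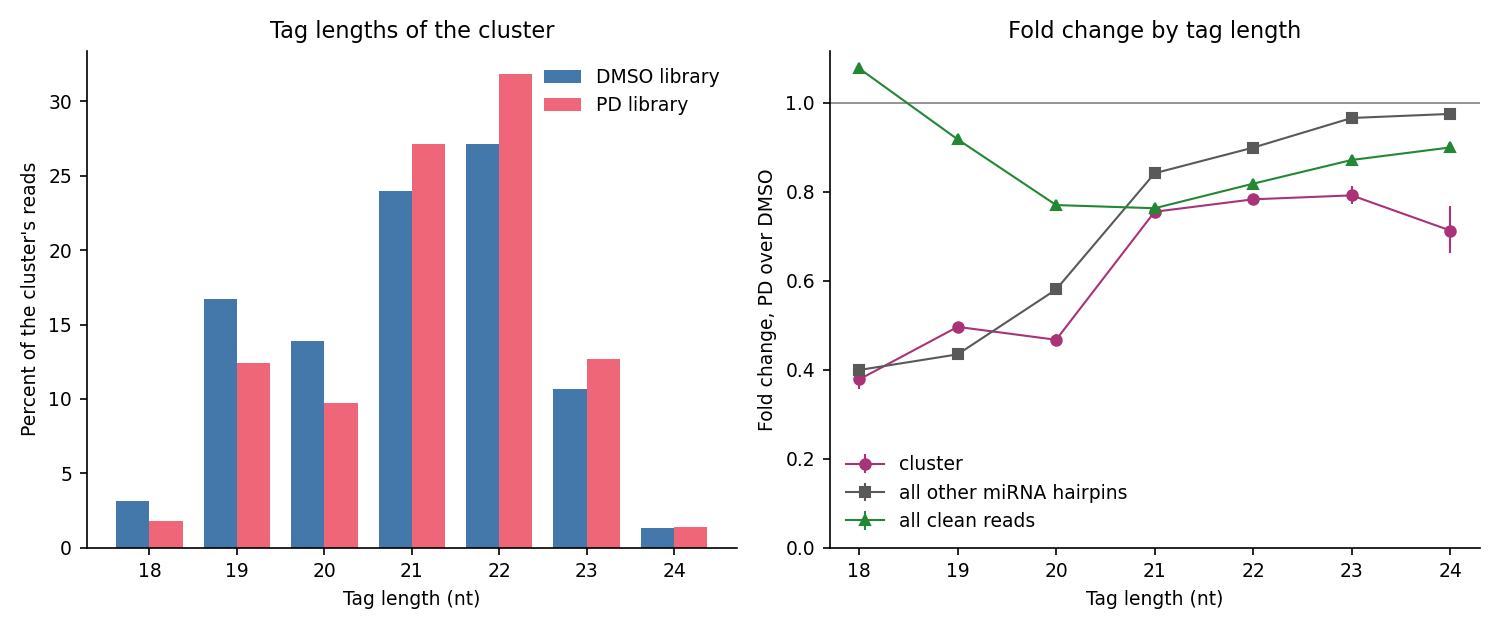
Tag lengths of the cluster as a percent of its reads in the DMSO (blue) and PD (red) libraries (left) and fold change PD over DMSO by tag length for the cluster, all other miRNA hairpins and all clean reads (right; bars are 95% Clopper-Pearson intervals, mostly smaller than the symbols). The cluster's folds lie between 0.378 and 0.496 at 18 to 20 nt and between 0.713 and 0.791 at 21 to 24 nt.

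Single members showed this split too. Of the 14 miRNAs at 100 RPM or more with enough reads of both lengths, 13 had the lower fold in the short tags, and for 11 the intervals did not overlap. The same count was not made for single miRNAs outside the cluster. The longer forms of some abundant strands had folds near 1. Tags of 21 nt or more of miR-323-3p had a fold of 0.972 (0.941 to 1.00) against 0.505 (0.493 to 0.517) for its shorter tags, and those of miR-376a-3p had 0.959 (0.916 to 1.00) against 0.440 (0.411 to 0.470). miR-382-5p stayed well below 1 in both classes, with 0.674 (0.651 to 0.698) and 0.417 (0.402 to 0.433). Its fold was 0.388 at 20 nt, its most frequent length, 0.514 at 21 nt and 0.947 (0.898 to 0.999) at 22 nt. miR-379-5p was the exception, with 0.865 (0.729 to 1.03) for its short tags and 0.751 (0.716 to 0.788) for the others.

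The cluster was also lower in PD in tags of 21 nt or more. This cut leaves length differences above 20 nt in place, and the part of tag length in the fall was not tested. Counting tags of 21 nt or more, 53 cluster miRNAs were detected with a median fold of 0.764, 50 of them below 1 and 7 of 53 at 1.5-fold lower. Of all 488 miRNAs detected in this way, 304 were below 1 and 44 (9.02%) were 1.5-fold lower, and the 435 outside the cluster had a median of 0.941. Tags of 21 nt or more made up over 95% of the DMSO reads of miR-329-3p, miR-494-3p, miR-495-3p, miR-134-5p, miR-485-3p, miR-485-5p and miR-541-5p, and their folds in these tags lay between 0.656 (miR-494-3p) and 0.783 (miR-329-3p). Length mattered above 20 nt too: miR-485-5p had a fold of 0.981 (0.934 to 1.03) in its main 23 nt form and of 0.449 (0.417 to 0.483) at 21 nt.

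The 5′ ends, which set the seed, were mostly uniform. Of the 37 miRNAs at 10 RPM or more, 22 had 95% or more of their reads at 1 start in both libraries, and 8 had 10% or more at other starts in at least 1 library. miR-485-3p was the most mixed of the abundant strands. Its reads at the most frequent start went from 47.6% (46.1 to 49.1) to 42.1% (40.4 to 43.7), those 1 nt downstream were 34.8% and 34.3%, and those 3 nt downstream went from 14.4% (13.4 to 15.5) to 18.8% (17.5 to 20.1). The share of the most frequent start thus differed between the libraries beyond counting error.

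miR-409-3p moved the other way. Its most frequent start went from 50.0% (48.4 to 51.6) to 55.0% (53.1 to 56.9) and the start 1 nt upstream from 36.0% to 30.3%. The most frequent tag at that upstream start had 18 nt. Reads of 18 nt of miR-409-3p went from 728 to 240 (0.297, 0.256 to 0.344). Whether the starts differed at equal tag length was not tested. miR-300-3p also differed, with 41.8% (35.0 to 48.8) and 57.1% (49.4 to 64.4) at the most frequent start, on 194 and 163 reads. miR-411-5p (61.9% and 60.2%), miR-323-3p (87.4% and 86.6%) and miR-1193-5p (79.4% and 80.0%) carried a second form 1 nt upstream at nearly the same share in both libraries. No shifted seed at 5% or more of a strand's reads equalled the seed of another detected member.

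**Figure D5:**
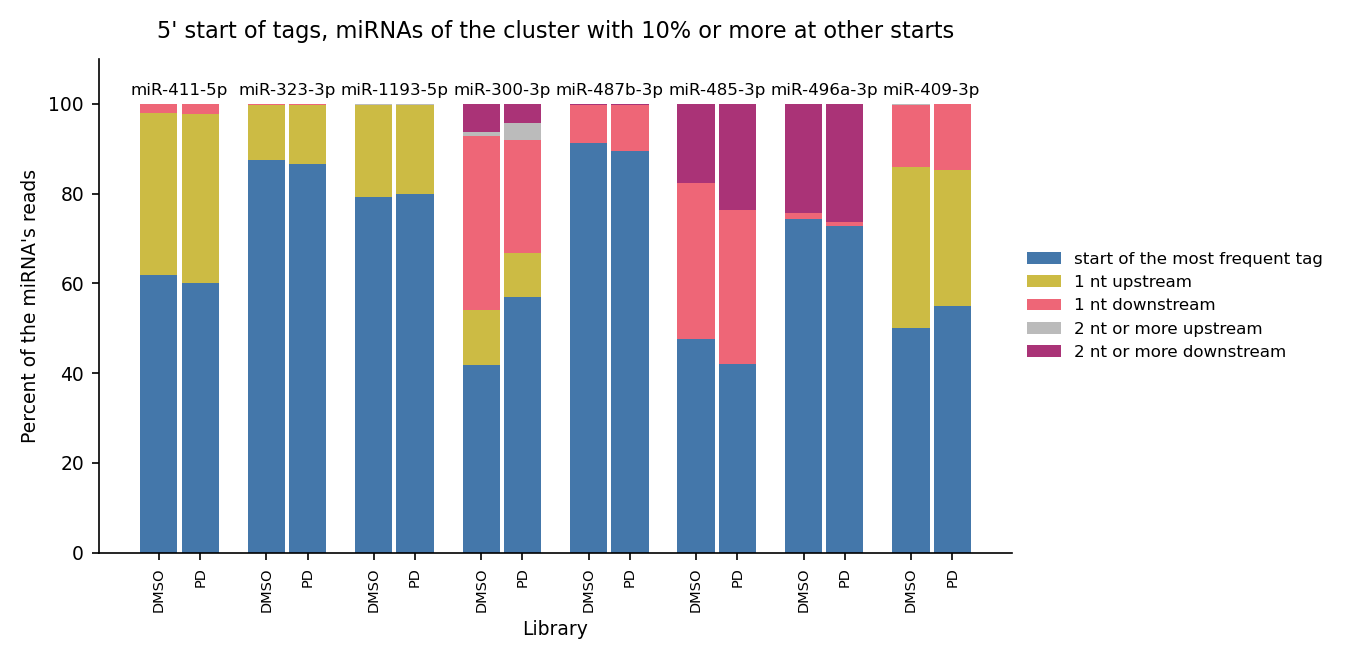
Percent of the reads of 8 miRNAs of the cluster by 5′ start, relative to the start of the most frequent tag, in the DMSO and PD libraries (stacked bars). miR-411-5p, miR-323-3p and miR-1193-5p keep their make-up, while the blue segment of miR-485-3p shrinks from 47.6% to 42.1% and that of miR-409-3p grows from 50.0% to 55.0%.

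Compared with the RefSeq mature sequences (GRCm38.p6), which cover 53 of the 56 detected members, 48 most frequent tags began at the annotated base. miR-382-3p was an abundant exception: its tags began 2 nt upstream of the annotated start, and 97.1% and 97.0% of its reads began there in the DMSO and PD libraries. Its seed is therefore AUCAUUC in these libraries (written with U), not the annotated one, and miR-377-3p began 3 nt upstream of its annotated start.

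By seed, the cluster was diverse, with 53 distinct seeds among 56 members. The seed GGUAGAC was shared by miR-379-5p and miR-1193-5p, which together went from 275 to 212 RPM (0.769, 0.738 to 0.8002). AUGUAAC was shared by miR-379-3p and miR-411-3p, whose tags differ only by T10C (miR-379-3p base first, counted from the 5′ end), and together they stood at 22.4 and 20.96 RPM (0.937, 0.818 to 1.07). The fold of miR-411-3p was above 1 under each of the 4 other scalings, at most 1.14. GGUUGUC, shared by miR-494-5p and miR-410-5p, went from 9.86 to 4.30 RPM (0.436, 0.335 to 0.564), nearly all of it miR-410-5p. Over tags of all lengths, the seed families of the cluster therefore did not move by a single factor. They were not compared at equal tag length.

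3 further seeds were shared with detected miRNAs of other loci, which were miR-329-3p with miR-362-3p, miR-1193-3p with miR-370-5p and miR-377-5p with miR-672-5p. Of the 56 members, 49 (87.5%) began with A or U, against 70.9% of the 454 other detected miRNAs. The 5 letters CACGG, a motif picked after the tags were seen and read on the sequenced strand only, occurred in 6 of 31 3p strands (miR-411-3p, miR-323-3p, miR-494-3p, miR-382-3p, miR-485-3p and miR-154-3p), in 0 of 25 5p strands and in 0.661% of the other detected miRNAs.

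Over tags of all lengths, the distal cluster had a lower summed fold than the proximal hairpins of the locus. The 20 proximal Dlk1-Dio3 hairpins, between Dlk1 and the cluster on either strand, went from 2716 to 2203 RPM (0.811, 0.801 to 0.821). Their 23 detected miRNAs had a median fold of 0.832, and 6 of them (26.1%) were 1.5-fold lower. Of the 23, 19 had a fold below 1 and 4 above 1. The proximal sum includes miR-341-3p, the highest of these, which rose from 238 to 319 RPM (1.34, 1.29 to 1.39). It was not recomputed without miR-341-3p or by tag length. The intervals of the summed folds do not overlap, whereas those of the medians do (log2 -0.56 to -0.12 for the proximal hairpins). The latter cover the spread over strands and not counting error. The 71 Sfmbt2 intronic hairpins, another large imprinted cluster, went from 2138 to 2433 RPM (1.14, 1.12 to 1.15) with a median fold of 0.942.

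Small RNA tags from the long transcripts of the locus were few. Tags of spliced Mirg outside the hairpins measured 46.4 and 31.3 RPM (0.675, 0.609 to 0.747). Of these 876 and 656 reads, 831 and 609 came from tags directly before miR-410-5p, so the fold says little about the rest of Mirg. The 23 snoRNAs between Meg3 and Mirg measured 40.7 and 33.7 RPM (0.827, 0.746 to 0.917). Rian gave 97 and 86 reads, Meg3 14 and 13, Dio3 5 and 1, Rtl1 1 and 0, and Dlk1 none in either library. Tags of 18 to 44 nt do not measure the level of such transcripts.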

How the data were processed

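The authors deposited 1 table of tags per library (length, read count and sequence of each distinct small RNA of 18 to 44 nt), as raw counts of clean reads after adapter removal and size selection. Each library was made from pooled RNA. The labels name mm9. The aligner was not given in the sources used here, and the tag sequences were matched anew to GENCODE M21 hairpins (GRCm38), so mm9 coordinates were not used. The line of totals was left out.

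Tags were assigned by perfect match, arms were split at the loop folded with ViennaRNA 2.7.2, and counts were divided by clean reads (RPM). Folds were PD over DMSO with 0.01 RPM in place of 0. Intervals were 95% Clopper-Pearson for folds, Wilson for shares and order-statistic over strands for medians, and the floor was 3 reads (0.159 and 0.143 RPM). Reads were compared by 2-sided exact binomial tests with Benjamini-Hochberg adjustment over 510 miRNAs of 1 RPM or more (SciPy 1.17.1, Python 3.11.15). With 1 library per treatment no model of replicates was fitted; edgeR 4.0.16 and DESeq2 1.42.0 (R 4.3.3) gave scaling factors for alternatives only. Other alternatives changed the denominator, the tags counted, the filter and the threshold. The steps were tested on simulated data.

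Members named with values were those of 10 RPM or more, those changed by 1.5-fold, families sharing a seed and hairpins without reads. The members and lists were chosen with earlier results of these data known. Microarray, qPCR and other inhibitor data were not analysed here. Mature sequences for comparison came from RefSeq (GRCm38.p6).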

Additional observations from a re-analysis of the deposited data

How the results depend on the processing

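Of 15 alternatives, 3 (tags of 21 nt or more, RefSeq mature sequences, leaving out Mir382) were chosen after seeing the data. The summed fold stayed below 1 under the 10 that bear on it, and the median log2 fold change below 0 under the 14 that bear on it. The summed fold was 0.765 relative to miRNA reads, 0.808 relative to clean reads of 20 to 24 nt, 0.714 with TMM, 0.741 with median-of-ratios factors, 0.661 with identical tags only, 0.717 with tags of 20 to 24 nt, 0.766 with tags of 21 nt or more and 0.697 without Mir382. Under the 4 scalings, in the same order, the median log2 fold change was -0.22, -0.14, -0.32 and -0.26, beside 0.03, 0.11, -0.07 and -0.01 over all detected miRNAs. The members 1.5-fold lower numbered 4, 4, 7 and 5 of 56, against 5.29%, 4.31%, 9.22% and 6.08% of all detected miRNAs. They numbered 20 of 71 with no filter on low counts (25.6% of all), 8 of 37 at 10 RPM or more (10.1%), 2 of 56 at a 2-fold threshold (3.14%) and 7 of 53 with tags of 21 nt or more (9.02%), so that several counts lay near the share over all miRNAs. Those 1.5-fold higher numbered 1 relative to miRNA reads, 1 relative to reads of 20 to 24 nt and 4 with no filter. Members past the exact binomial test numbered 26 and 23 under the first pair of scalings. The same was not counted over all detected miRNAs, nor was the number 1.5-fold higher, so these counts describe the cluster only.

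The 5p share in DMSO and PD was 32.9% and 32.9% with identical tags, 40.6% and 39.9% with tags starting at the first base, 41.9% and 39.5% with tags of 20 to 24 nt, 43.3% and 40.8% with tags of 21 nt or more and 32.0% and 32.9% without Mir382.

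Some single members changed direction. Relative to miRNA reads the folds were 1.06 for miR-379-3p, 1.02 for miR-380-3p, 1.08 for miR-411-3p and 1.01 for miR-496a-3p. Relative to reads of 20 to 24 nt they were 1.05 for miR-369-3p, 1.04 for miR-376b-3p, 1.12 for miR-379-3p, 1.08 for miR-380-3p, 1.002 for miR-409-5p, 1.14 for miR-411-3p, 1.0007 for miR-412-5p and 1.07 for miR-496a-3p. With TMM miR-411-3p had 1.01, and with median-of-ratios factors miR-379-3p had 1.02 and miR-411-3p 1.04. miR-410-3p had 1.10 with identical tags, 1.08 with tags of 20 to 24 nt and 1.12 with tags of 21 nt or more, and miR-300-3p 1.03 with tags starting at the first base. The cause was not tested. Of 560 values of the 44 named members under alternatives, 468 kept direction and call, 67 lost the call and 6 gained it.

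No paired analysis was possible because each treatment has 1 library. With no replicate, differences between cultures cannot be separated from the treatment, and depth limits the members under 10 RPM most, where intervals were widest.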

Other observations

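Most small RNA reads of Mirg outside its hairpins (876 in DMSO and 656 in PD) came from one place, directly before miR-410-5p. There, 15 of the 50 distinct tags had 831 reads in DMSO and 609 in PD (44.04 and 29.1 RPM; fold 0.660, 0.594 to 0.734). The most frequent of them (chr12:109743708-109743728, GRCm38, plus strand) begins 7 nt before the annotated Mir410 hairpin, so that the tags were not members of the cluster as defined, and it ends at the base before the first base of miR-410-5p. It is shown because the files hold more reads of it than of the annotated strand beside it.
Mir410 offset tag: caacactgggtacttgaggag
This tag alone had 620 and 486 reads, against 166 and 74 for miR-410-5p. The fold interval of the 15 tags does not overlap that of miR-410-5p (0.301 to 0.531). The offset tag shown has 21 nt, and the most frequent miR-410-5p tag has 19 nt. At these lengths the cluster's tags had folds of 0.755 and 0.496, and no comparison at equal tag length was made. Tags beside the 5p strands of Mir485 (22 and 24 reads) and Mir377 (13 and 12 reads) were few.

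Tags with 1 changed base were searched for the 37 cluster miRNAs of 10 RPM or more. Of 1953 possible changes, 2 reached 1% with 3 or more reads in both libraries, and both were A6G in the miR-376 family, with the base of the strand first and positions counted from 1 at its 5′ end. miR-376b-3p carried A6G in 14 of 537 reads (2.61%, Wilson interval 1.56 to 4.33) in DMSO and in 16 of 514 (3.11%, 1.92 to 5.00) in PD. miR-376c-3p carried it in 4 of 317 reads (1.26%) and 6 of 268 (2.24%). miR-376a-3p had it in 1 of 6133 reads and 0 of 5011, the latter allowing up to 0.0766%. The intervals of the libraries overlap for each strand, and no other base was read at that position of these 3 strands.

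Reads of cluster strands with untemplated A at the 3′ end made up 3.43% (3.33 to 3.53) in DMSO and 3.84% (3.72 to 3.96) in PD, and those with untemplated U 2.02% (1.94 to 2.10) and 2.52% (2.42 to 2.62). Other miRNAs had higher shares of both, with A at 4.45% and 4.67% and U at 4.41% and 4.65%. These reads do not match a hairpin over their whole length and were not counted for the cluster.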
